A study of Mus musculus with 4 samples.

Results

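The matrix metalloproteinases (MMPs) and their tissue inhibitors (TIMPs) were followed in mouse primary myotubes stimulated with EDA-A2, the ligand of the EDA2R receptor. The genes were taken by name: the 6 enzyme genes Mmp2, Mmp3, Mmp9, Mmp11, Mmp14 and Mmp15 and all 4 inhibitor genes, Timp1 to Timp4, together 10 of the 53647 genes counted. Bulk RNA sequencing compared 2 control libraries with 2 EDA-A2 libraries, all of WT genotype. Myoblasts had been taken from the limb muscles of pups 2 to 3 days old and differentiated in medium with 5% horse serum. The EDA-A2 cultures received recombinant protein at 250 ng/mL for 24 h, the others were labelled as controls with no vehicle named, and all were harvested at 72 h of differentiation. The labels do not say whether the 2 libraries of a condition came from separate isolations of cells, so the p-values measure the spread between these libraries, which may be technical.

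MMPs are zinc-dependent proteases that cut collagens, laminins and other proteins around cells. They are made as inactive precursors and become active once a propeptide is removed, and TIMPs block them by binding the active site. Mmp2 and Mmp9 encode the gelatinases, Mmp3 and Mmp11 encode stromelysins, and Mmp14 and Mmp15 encode enzymes anchored in the cell membrane. In muscle these proteases take part in myoblast migration, in the turnover of the basement membrane around fibres and in repair, and transcript levels do not report how much of an enzyme is active.

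Between 29444155 and 29746863 read pairs per library fell on genes. At this depth a count of 0 allows up to 3 counts, or 0.101 to 0.102 CPM, and such limits and intervals on counts cover counting error only. Normalized counts are counts scaled by edgeR's TMM factors to the mean library size. Myotube markers were abundant, with Myh3, the embryonic myosin heavy chain, at 235226 and Acta1, skeletal actin, at 179987 normalized counts in the controls. Mki67, a gene of dividing cells, had between 7583 and 9242 counts in every library. Of 7 markers of fibroblasts and related progenitors, Thy1 and Lum had 0 counts in every library and Dpt had 2 or 3, while Col3a1 had 38820 to 45682 and Col1a1 4769 to 9004. Pdgfra, a marker of fibro-adipogenic progenitors, had 240 and 286 counts in the controls and 308 and 300 after EDA-A2, and Dcn had 73 and 99 in the controls and 138 and 111 after EDA-A2. In both genes the EDA-A2 libraries lay above the controls, and neither was called (edgeR adjusted p = 0.651 and 0.267). Col1a1 averaged 7183 normalized counts in the controls and 5238 after EDA-A2, and Col3a1 43031 and 41991. Both averages were thus lower after EDA-A2, with overlapping ranges, and neither gene was called (edgeR adjusted p = 0.221 and 0.896). All values are averages over the cultures, in which fewer cells of a type and less RNA per cell cannot be told apart.

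Per kilobase of exon, the inhibitor transcript Timp2 led the family in every library. Levels are given as RPKM, that is CPM on the normalized scale per kilobase of all annotated exons of a gene. In the controls Timp2 stood at 100.03 and 118.7 RPKM, and higher than 98.3% of the tested genes when averaged over all libraries. Timp1 followed at 39.3 and 34.2 RPKM and Mmp2 at 28.6 and 35.2, and the ranges of these neighbours overlapped. Mmp14 came next with 23.0 and 25.2, below both Mmp2 libraries, then Mmp11 with 15.1 and 14.5 and Timp3 with 14.0 and 12.4. Mmp15 had 9.50 and 9.28 RPKM and Mmp9 only 1.87 and 2.45. Mmp3 and Timp4 lay at or under 0.0773 RPKM in the controls. The middle of this order depends on the length used. With the longest transcript of each gene in place of all exons, Mmp14 averaged 43.1 RPKM in the controls, above Timp1 at 39.1 and Mmp2 at 35.0, and Timp3 at 22.4 stood above Mmp11 at 17.3.

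**Figure D1:**
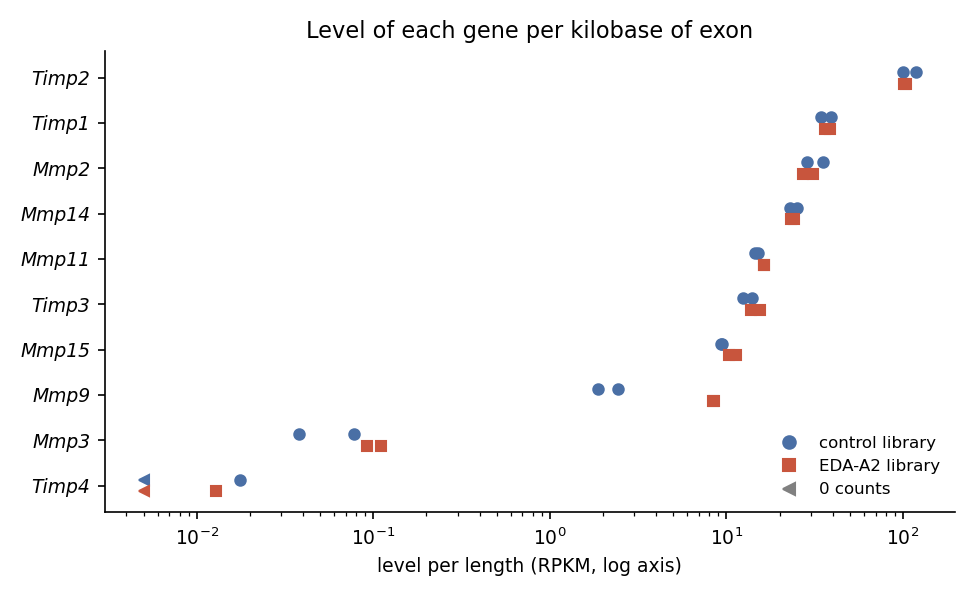
Level of the 10 genes in each library, in RPKM on a log axis, ordered by the control mean. Circles are the 2 control libraries, squares the 2 EDA-A2 libraries, and triangles at the left edge mark libraries with 0 counts. Timp2 is highest in all 4 libraries, and Mmp9 is the gene whose squares lie far to the right of its circles.

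After EDA-A2, Mmp9 rose about 4-fold, and it was the only one of the 8 genes that could be tested to pass. Mmp9 encodes gelatinase B, which degrades denatured collagen and type IV collagen of basement membranes. The gene (ENSMUSG00000017737) lies on chromosome 2 from 164780439 to 164797771 of GRCm39, plus strand, and no other annotated gene overlaps it. Its canonical start site, at 164790139, lies inside this span. Control replicates 1 and 2 had 205.0 and 268.2 normalized counts of Mmp9, and EDA-A2 replicates 1 and 2 had 937 and 919.9. Both EDA-A2 libraries lay above both controls, and the 2 control values were further apart than the 2 treated ones. Per length, Mmp9 went from 2.16 ± 0.408 to 8.47 ± 0.111 RPKM (SD, n = 2 libraries each). The fold change was 3.92, or 1.97 on the log2 scale (standard error 0.12, 95% interval 1.72 to 2.22). The Benjamini-Hochberg adjusted p, from the quasi-likelihood test of edgeR, was 1.16e-07, and Mmp9 ranked 10 among all 15173 genes tested. For comparison, 2.45% of the tested genes were called higher (371) and 2.13% lower (323), a split that became 485 higher and 194 lower under scaling to total counts.

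The rise of Mmp9 kept its size with any library left out, but its call needed both controls. Its log2 fold change lay between 1.79 and 2.18 when each library was removed in turn. Without control replicate 1 the adjusted p from edgeR was 0.131 (unadjusted 7.99e-05), and without control replicate 2 it was 0.0898 (unadjusted 4.03e-05). In these fits, where the lone control is assumed to vary like the EDA-A2 pair, edgeR called none of the genes tested, although 2179 and 2448 genes had an unadjusted p under 0.05. With either EDA-A2 library left out Mmp9 still passed, and over all alternatives its adjusted p ran from 3.72e-35 (DESeq2) to 0.131.

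**Figure D2:**
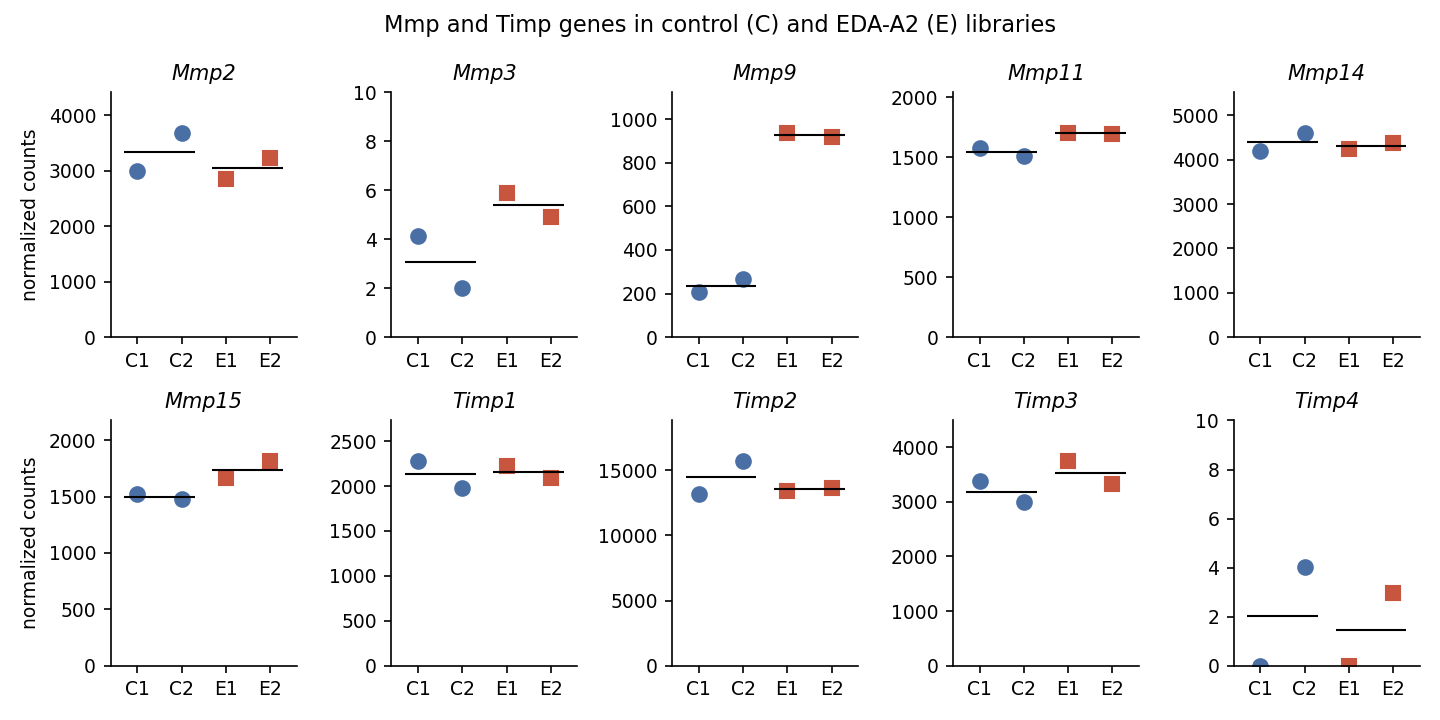
Normalized counts of each gene in the 2 control (C1, C2, circles) and 2 EDA-A2 (E1, E2, squares) libraries, with the mean of each condition as a line; each panel has its own axis from 0. Mmp9 moves from 205.0 and 268.2 to 937 and 919.9, while the other well-expressed genes stay close to their control level.

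Because macrophages and neutrophils are known sources of Mmp9, their markers were read in the same libraries. None of the 6 neutrophil markers had more than 2 counts in a library, and S100a9, Ly6g, Mpo and Csf3r had 0 in all. Among 7 macrophage markers, the defining genes Adgre1 and Ptprc had at most 2 counts and Lyz2 at most 3. Csf1r had 3 and 1 counts in the controls and 8 and 3 after EDA-A2. Cd68, Mrc1 and Itgam were the macrophage markers that could be tested, and all were above 0 in change without passing. Itgam, an integrin subunit of myeloid cells, had 18 and 18 counts in the controls and 39 and 32 after EDA-A2 (log2 fold change 0.92, edgeR adjusted p = 0.168). The summed level of the 7 macrophage markers was 2.48 and 2.46 RPKM in the controls and 3.48 and 2.78 after EDA-A2. The part of such cells in the Mmp9 result was not tested.

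The sequence in front of Mmp9 is shown because NFκB and AP-1 are textbook regulators of this gene, and that of Mmp2 because the other gelatinase did not pass. Windows were read from GRCm39 at the start site of the canonical GENCODE transcript, and capitals mark every match to the NFκB consensus motif, to TGANTCA (AP-1), to GGGCGG (GC box) or to TATAAA on either strand. Within the stretches shown no matches overlap. The first run covers 250 bases before and 30 bases from the Mmp9 start site (chr2:164789889-164790168, plus strand), the next a stretch of 130 bases further upstream (chr2:164789579-164789708), and the last 60 bases upstream of the Mmp2 start site (chr8:93553185-93553244, plus strand).
Mmp9 proximal: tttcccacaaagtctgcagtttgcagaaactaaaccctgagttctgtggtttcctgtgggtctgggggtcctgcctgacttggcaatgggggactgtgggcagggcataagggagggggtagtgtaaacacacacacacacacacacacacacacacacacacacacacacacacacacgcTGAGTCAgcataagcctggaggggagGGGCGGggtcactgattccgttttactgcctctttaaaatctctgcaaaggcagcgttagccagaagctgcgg
Mmp9 distal: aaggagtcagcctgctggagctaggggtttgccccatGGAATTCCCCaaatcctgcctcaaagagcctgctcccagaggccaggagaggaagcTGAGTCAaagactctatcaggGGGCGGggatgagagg
Mmp2 distal: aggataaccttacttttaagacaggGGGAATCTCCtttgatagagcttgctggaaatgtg

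Near the Mmp9 start, an AP-1 match stood at bases -69 to -63 and a GC box at -43 to -38, next to a long CA repeat. Further out, an NFκB match was read on the minus strand at -523 to -514 and another AP-1 match at -467 to -461. Mmp2 also carried an NFκB match, at -692 to -683. Over windows of 1000 bases before and 30 from the start, 2 of the 10 genes held an NFκB match, Mmp2 and Mmp9, against 20.2% of all 21757 protein-coding promoters. An AP-1 match was found in 4 of the 10, Mmp3, Mmp9, Timp1 and Timp3, against 24.6%. A match describes letters in the window and is not evidence of binding.

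Mmp2, which encodes gelatinase A and was the most abundant enzyme gene per exon length in the controls, did not pass. Its normalized counts were 2992 and 3681 in the controls and 2850.4 and 3233 after EDA-A2, so the ranges overlapped. The log2 fold change was -0.13 (standard error 0.09, 95% interval -0.33 to 0.06, edgeR adjusted p = 0.569), and it was 0.025 without control replicate 2. Mmp2 (ENSMUSG00000031740) lies on chromosome 8 from 93553902 to 93580049, and a noncoding gene on the other strand, Gm45472, shares 860 exon bases with it but had at most 2 counts. In the controls the level per length of Mmp2 was 15.3 and 14.4 times that of Mmp9, and after EDA-A2 it was 3.19 and 3.68 times.

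The membrane-anchored enzymes were well expressed, and neither passed. Mmp14 (ENSMUSG00000000957, chromosome 14 from 54668878 to 54682821), whose product removes the propeptide of pro-MMP2 at the cell surface, had 4204 and 4606 normalized counts in the controls and 4231 and 4388 after EDA-A2. The treated values fell between the control values. Its log2 fold change was -0.032 (95% interval -0.18 to 0.12, edgeR adjusted p = 0.897), and its sign turned under scaling to total counts (0.023). It shares 219 exon bases with Gm62879, a noncoding gene on the other strand that is not among the genes counted. Mmp15 (ENSMUSG00000031790, chromosome 8 from 96078895 to 96101708) had 1519 and 1482 in the controls and 1663 and 1812 after EDA-A2. Both EDA-A2 libraries were above both controls. The log2 fold change of Mmp15 was 0.21 (standard error 0.08, 95% interval 0.05 to 0.37), with an unadjusted p of 0.0142 and an adjusted p of 0.157 from edgeR, so it was not called. Over the alternatives its adjusted p lay between 0.0672 and 0.766.

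The stromelysins were at opposite ends of expression. Mmp11, stromelysin-3, which is activated inside the cell by furin, had 1579 and 1511 normalized counts in the controls and 1703 and 1694 after EDA-A2. These values did not overlap, yet the log2 fold change of 0.14 (95% interval -0.02 to 0.29) was not called (edgeR adjusted p = 0.414). Mmp11 (ENSMUSG00000000901, chromosome 10 from 75759055 to 75772330) shares 155 exon bases with Chchd10 on the other strand, which had 617 to 737 counts. Mmp3, stromelysin-1, is a secreted protease that cuts many matrix proteins and can activate other MMPs. It had 4 and 2 raw counts in the controls and 6 and 5 after EDA-A2, too few for the expression filter. The ratio of the summed counts, 11 against 6, was 1.77 with an exact 95% interval of 0.598 to 5.81, so at this depth the counts left room for a fall as well as for a rise of several fold.

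No inhibitor gene passed, and the best-expressed among them were tightly bounded. Timp1, a secreted inhibitor that also binds the precursor of MMP9, had 2275 and 1982.5 normalized counts in the controls and 2224 and 2087 after EDA-A2. Both treated values lay within the control range. The log2 fold change of Timp1 was 0.018 (standard error 0.08, 95% interval -0.15 to 0.19, edgeR adjusted p = 0.953), and leaving out single libraries gave -0.077 to 0.12. Timp1 (ENSMUSG00000001131, chromosome X from 20736316 to 20740976) sits inside the synapsin gene Syn1 on the opposite strand and shares no exon base with it. Syn1 had 803 to 1049 counts.

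Timp2, which both inhibits MMP2 and helps MMP14 to activate its precursor, was the most abundant gene of the family. It had 13217 and 15689.6 normalized counts in the controls and 13413 and 13679 after EDA-A2, again within the control range. Its log2 fold change was -0.094 (95% interval -0.26 to 0.08, edgeR adjusted p = 0.669), with 0.036 when control replicate 2 was left out. Timp2 (ENSMUSG00000017466) spans chromosome 11 from 118191887 to 118246566 and shares 332 exon bases with Cep295nl on the same strand, which had 20 to 36 counts. Timp3, the inhibitor that stays bound to the matrix and also acts on ADAM17, had 3380.45 and 2989.9 in the controls and 3738 and 3318 after EDA-A2. These ranges overlapped, and the log2 fold change of 0.15 (95% interval -0.02 to 0.32) was not called (edgeR adjusted p = 0.424).

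Timp4 was nearly silent in these cultures. It had 0 and 4 raw counts in the controls and 0 and 3 after EDA-A2, so it was not tested in the main fit. Timp3 (ENSMUSG00000020044, chromosome 10 from 86136236 to 86185371) and Timp4 (ENSMUSG00000030317, chromosome 6 from 115187773 to 115229336) lie, like Timp1, inside synapsin genes on the other strand, Syn3 and Syn2. They share 1734 and 1142 exon bases with these hosts. Syn3 had at most 2 counts and Syn2 between 9 and 18. Since the strand setting of the counting is not given in the sources used here, reads of such overlaps cannot be assigned with certainty.

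Set side by side, the family held 1 gene that rose and 7 tested genes that did not pass. Among the 8 tested, both EDA-A2 libraries lay above both controls for Mmp9, Mmp11 and Mmp15, an arrangement that 22.8% of all tested genes showed. None of the 8 had both EDA-A2 libraries below both controls, against 22.2% of the tested genes. The 8 had a median log2 fold change of 0.077, beside -0.0021 over all genes tested. Of the 7 not called, the 95% intervals reached no further than -0.33 and 0.37, so a change as large as that of Mmp9 lay outside each of them.

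**Figure D3:**
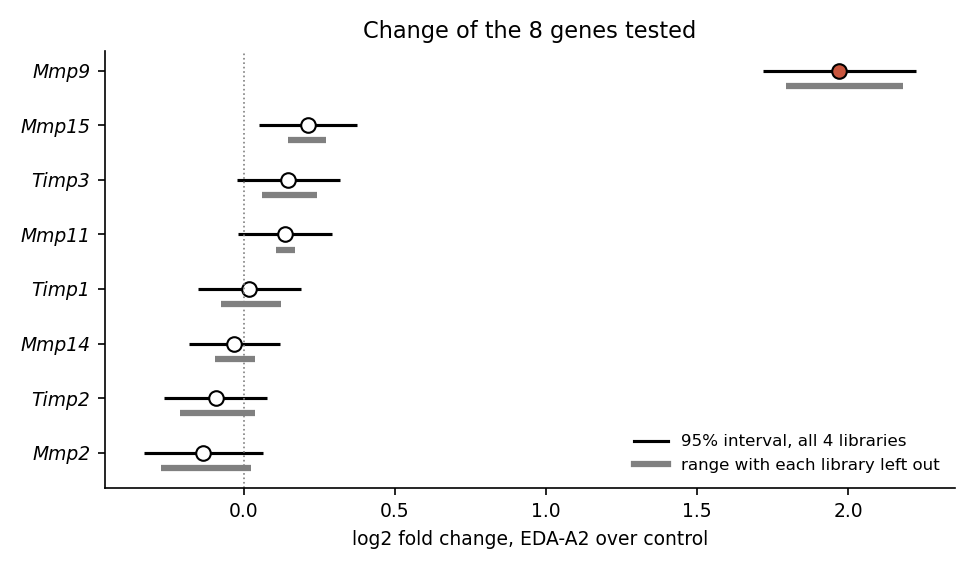
Log2 fold change (EDA-A2 over control) of the 8 genes tested. Points with black lines give the estimate and 95% interval from all 4 libraries, filled where the adjusted p is under 0.05, and grey bars give the range with each library left out in turn. Mmp9 stands at 1.97 and the other 7 between -0.13 and 0.21.

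The spread between replicates differed among the genes. Between the control libraries the log2 ratio of replicate 2 to replicate 1 was 0.39 for Mmp9, 0.30 for Mmp2 and 0.25 for Timp2, and -0.20 for Timp1 and -0.18 for Timp3. Over the 11354 tested genes that averaged 100 or more normalized counts the SD of this ratio was 0.19. Between the EDA-A2 libraries the ratios of the 8 genes ran from -0.17 for Timp3 to 0.18 for Mmp2, with an SD of 0.13 over the same genes.

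The makeup of the enzyme transcripts shifted, while that of the inhibitors showed no such step. Mmp9 made up 2.39% and 2.82% of the summed enzyme level per length in the controls and 9.96% and 9.22% after EDA-A2. Mmp2 took 36.6% and 40.6% in the controls and 31.8% and 34.0% after EDA-A2. Mmp14 took 29.4% and 29.1% in the controls and 27.0% and 26.4% after EDA-A2, while the shares of Mmp11 and Mmp15 overlapped. These are parts of a sum that holds Mmp9, so a larger Mmp9 part leaves less for the other genes. Timp2 held 65.2% and 71.8% of the inhibitor level in the controls and 65.3% and 67.5% after EDA-A2. Within each library the inhibitor sum exceeded the enzyme sum, by ratios of 1.96 and 1.91 in the controls and 1.81 and 1.68 after EDA-A2. These ratios did not overlap, but 2 libraries against 2 cannot go below p = 0.333 in a two-sided exact permutation test. With Mmp9 taken out of the enzyme sum the ratios were 2.01 and 1.96 in the controls and 2.01 and 1.86 after EDA-A2, which overlapped. For the pair Timp1 and Mmp9 the ratio of levels per length was 21.0 and 14.0 in the controls and 4.49 and 4.29 after EDA-A2. The ratio of Timp2 to Mmp2 stayed within 3.35 to 3.73 in all 4 libraries.

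**Figure D4:**
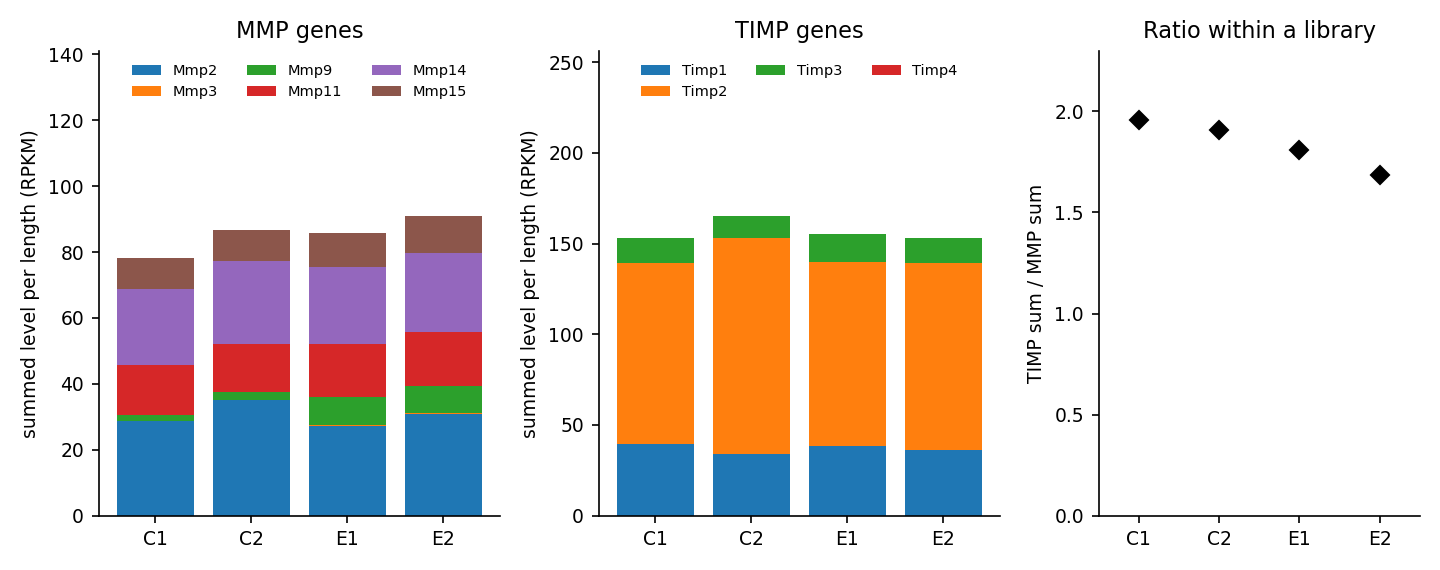
Summed level per length (RPKM) of the 6 enzyme genes and of the 4 inhibitor genes in each library, stacked by gene from 0, and the ratio of the inhibitor to the enzyme sum. The Mmp9 segment widens in E1 and E2, and the ratio goes from 1.96 and 1.91 in the controls to 1.81 and 1.68.

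Across the 12344 other tested genes that averaged 50 or more normalized counts, the pattern nearest to that of Mmp9 was sought by the Euclidean distance of log2 normalized counts over the 4 libraries, centred on the control mean. The 5 nearest were Colq, which encodes the collagen tail of acetylcholinesterase, Nfkb2, a subunit of noncanonical NFκB, the membrane protein genes Tmem176a and Tmem176b, and Rhbdl2, a rhomboid protease gene. Their distances were 0.20, 0.31, 0.31, 0.36 and 0.38. Colq went from 518 and 579.8 to 2019 and 2147 normalized counts. Over only 4 libraries this likeness mostly reads the size of the treatment difference.

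Other genes of pericellular proteolysis were read from lists of genes with related roles. Of 17 other MMP genes, 6 could be tested and none passed, with a median change of 0.022 on the log2 scale. The smallest p-values in that list belonged to Mmp23 (0.43, adjusted p = 0.559 by edgeR), Mmp17 (-0.31, 0.588) and Mmp16 (-0.19, 0.743). At an unadjusted p under 0.05 by edgeR there was likewise 0 of 6, against 15.6% of all genes tested. DESeq2 also called 0. Mmp1b, Mmp7, Mmp20 and Mmp25 had 0 counts in every library. The collagenase gene Mmp13 had 9 and 21 counts in the controls and 26 and 16 after EDA-A2. So Mmp9 alone was called among the 8 tested of the 10 genes and the 6 tested of these 17. Over all genes tested, 2.45% were called higher and 2.13% lower.

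Among 16 genes that activate MMPs, bind them or inhibit neighbouring protease systems, 13 were tested and none passed by edgeR (median log2 fold change -0.058), although 3 had an unadjusted p under 0.05, as had 15.6% of all genes tested. Plau, the urokinase gene, and Lrp1, the receptor that clears several proteases, had log2 fold changes of -0.19 each (adjusted p = 0.150 for both by edgeR). Bsg, which encodes basigin, a membrane protein known to induce MMPs, had 66564 and 60912 normalized counts in the controls and 53458 and 57720.2 after EDA-A2 (log2 fold change -0.20, edgeR adjusted p = 0.188). Furin, which cuts the propeptide of the membrane-anchored enzymes and of MMP11, stood at -0.026 on the log2 scale, and Reck, a membrane-bound MMP inhibitor, at 0.052.

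In the related Adam and Adamts proteases, several of which TIMPs also inhibit, 16 of 18 listed genes were tested, and 1 fell. Adamts1, which cleaves proteoglycans, went from 856 and 829 normalized counts to 609.7 and 592 (log2 fold change -0.49, standard error 0.09, edgeR adjusted p = 0.00412). It was not called without control replicate 1 (0.285), without control replicate 2 (0.191), without EDA-A2 replicate 2 (0.0578) or with no filter (0.0878). Adamts9 (-0.33, 0.0664) and Adamts5 (-0.29, 0.0920) were below 0 and were not called. The list had a median of -0.041. At an unadjusted p under 0.05 by edgeR there were 4 of the 16, with Adamts20 above 0, against 15.6% of all genes tested. The list did not hold every gene of the family. Over all 53 genes named Adam or Adamts, 26 were tested, 1 rose and 1 fell, with a median of -0.031. Of all genes tested, 2.45% were called higher and 2.13% lower. The gene that rose, Adamts14, outside the list and named after its value was seen, encodes a protease that trims procollagen. It had 1164 and 856 normalized counts in the controls and 1957 and 1737 after EDA-A2 (log2 fold change 0.87, standard error 0.11, edgeR adjusted p = 0.000306), a larger change than that of Adamts1. Adamts14 was not called without control replicate 1 (0.256), without control replicate 2 (0.191) or with no filter (0.114).

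Of 19 genes for matrix proteins that MMPs can cut, 17 were tested and 1 fell, with a median of -0.14 and 13 of the 17 below 0. Of all genes tested, 2.13% were called lower. Over all tested genes with a known exon length, 7630 of 15103 were below 0. At an unadjusted p under 0.05 by edgeR there were 8 of the 17, against 15.6% of all genes tested. Of these 8, Dcn was above 0 and the others were below. Spp1, the gene of the secreted phosphoprotein osteopontin, went from 47091 and 48306 normalized counts to 34858 and 35149 (log2 fold change -0.45, standard error 0.07, edgeR adjusted p = 0.00108), a call that did not hold without control replicate 1 (0.256) or control replicate 2 (0.183). The basement membrane collagen genes Col4a1 and Col4a2 had log2 fold changes of -0.19 each (edgeR adjusted p = 0.174 and 0.172). Of the 8 myotube markers, 3 were called lower in the same libraries, Myh3 (-0.57), Acta1 (-0.52) and Myh8 (-0.38). The fusion gene Mymx was called higher (1.22). The shares called over all genes tested were 2.13% lower and 2.45% higher. Not called were Ckm (-0.36, edgeR adjusted p = 0.0662), Myog (-0.18, 0.360), Des (-0.021, 0.933) and Mymk (-0.015, 0.958). Among 4 markers of smooth muscle cells and pericytes, 3 were tested and 1 was called lower, Pdgfrb (-0.45, edgeR adjusted p = 0.0125). Cspg4 (-0.86, edgeR adjusted p = 0.201) and Rgs5 (0.42, 0.685) were not called, and Myh11 had 5 counts in every library. The summed level of these 4 was 4.33 and 4.29 RPKM in the controls and 3.00 and 3.43 after EDA-A2. The summed level of the 8 myotube markers was 4595 and 4285 RPKM in the controls and 3408 and 3513 after EDA-A2. Within this sum, Acta1 averaged 1636 RPKM in the controls and 1142 after EDA-A2, and Myh3 1211 and 814. The part of either group of cells in the values of the matrix genes was not tested.

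**Figure D5:**
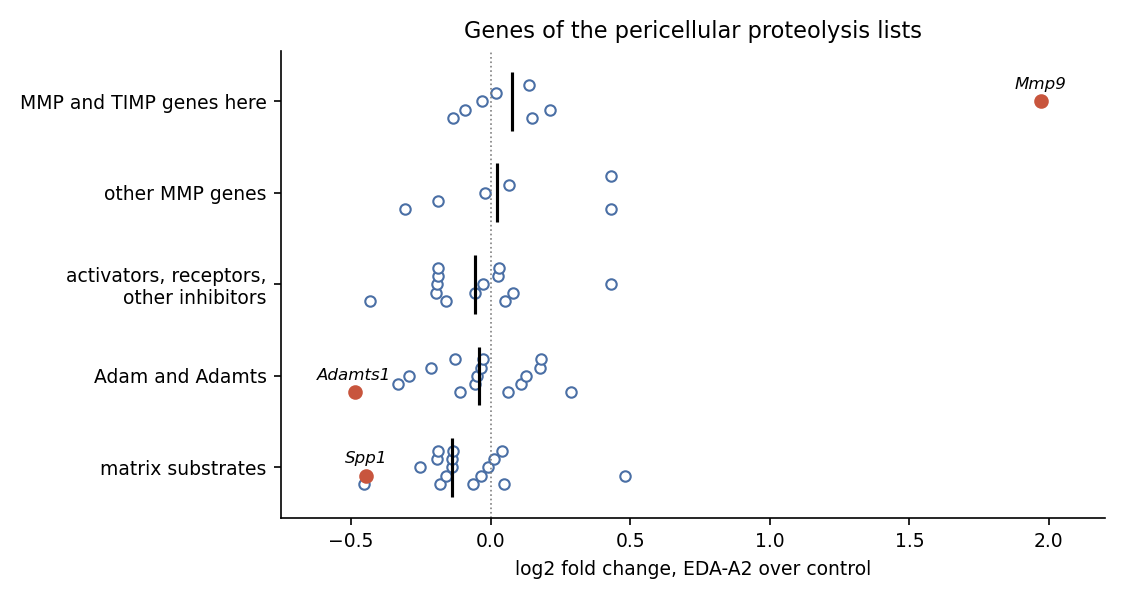
Log2 fold change (EDA-A2 over control) of the tested genes in each list (for Adam and Adamts, the 18 listed genes, without Adamts14), 1 point per gene, filled and named where the adjusted p from edgeR is under 0.05, with the list's median as a vertical bar. Mmp9 lies at 1.97 and all other points within 0.5 of 0. Among these are the called Adamts1 at -0.49 and Spp1 at -0.45, and the uncalled Dcn at 0.48 and Col1a1 at -0.46.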

How the data were processed

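Total RNA was isolated and paired-end libraries were made with a stranded kit for polyadenylated RNA. The authors checked reads with FastQC (0.11.9), trimmed them with Trim Galore (0.6.5), mapped them to GRCm39 with STAR (2.7.3a) and counted them per Ensembl gene with HTSeq (0.11.1). The deposited values are raw counts of read pairs, 1 table per library, without normalization or pooling; the annotation release and strand setting are not given in the sources used here. HTSeq's summary lines (unassigned, ambiguous and multiply mapped pairs, 6.68% to 7.40%, 0.946% to 0.986% and 4.56% to 4.76% of pairs) were left out. Symbols and exon lengths came from GENCODE M39, which matched 52610 of 53647 genes.

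Counts were analysed with edgeR 4.0.16 in R 4.3.3 (TMM; filterByExpr, minimum count 10, minimum total 15; glmQLFit and glmQLFTest; condition as the only term), fitted on all genes, with Benjamini-Hochberg adjustment over the 15173 genes tested and a threshold of 0.05. Standard errors are the log2 fold change over the square root of F. Alternatives were other scaling factors and filters, DESeq2 1.42.0, a replicate block, a threshold of 0.01 and leaving out each library. The steps were tested on simulated counts. The genes and lists were chosen with earlier results of these data known. The text names all 10 genes, up to 3 genes per list with the smallest p, and the 5 nearest patterns; further genes were named after their values were seen. A gene of the list of activators and inhibitors is not reported here. Over all genes tested, the deviations of same-numbered libraries had a correlation of 0.06. Among the 8 tested MMP and TIMP genes, Mmp9 and Mmp15 deviated in opposite directions in the 2 pairs, and the others in the same direction. With 2 pairs these values cannot show whether the numbers mark pairs. The main fit did not treat them as pairs, and the fit with a replicate block is given below.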

Additional observations from a re-analysis of the deposited data

How the results depend on the processing

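Mmp9 was the only one of the 10 genes called under every scaling, filter, test and threshold tried; without 1 library the number called was 0 to 1. Its log2 fold change lay between 1.97 and 2.02 over the settings that keep all libraries. With a replicate block it was 1.98, still 1 gene called, and the block changed no call among the 10. Left-out libraries turned the sign of 4 uncalled genes, with ranges of -0.27 to 0.025 for Mmp2, -0.094 to 0.037 for Mmp14, -0.077 to 0.12 for Timp1 and -0.21 to 0.036 for Timp2. Mmp14 was also at 0.023 under total counts. Over all genes, 371 higher and 323 lower became 64 and 22 with no filter and 204 and 135 at a threshold of 0.01. Lower calls were 194 under total counts and 529 with the replicate block (537 higher). Without 1 library, 0 to 238 were higher and 0 to 170 lower. The Adam and Adamts list held 0 lower calls with no filter and 3 with the replicate block (Adamts1, Adamts5 and Adamts9), and 0 to 1 without 1 library. The matrix list held 0 to 2 lower calls without 1 library, the second being Col1a1 without EDA-A2 replicate 2. The cause was not tested. With no filter, Mmp3 had a log2 fold change of 0.79 (standard error 0.70, edgeR adjusted p = 0.733), on 17 pairs in all. Timp4 had -0.44 (standard error 1.67, edgeR adjusted p = 0.935), on 7 pairs in all.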
